A study of Homo sapiens with 9 samples.

Results

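The nuclear genes of the respiratory chain were 88 of the 19970 protein-coding genes on chromosomes 1 to 22 and X, most of them encoding subunits of the 5 complexes of oxidative phosphorylation. They were chosen by symbol in the gene table that RefSeq gives for GRCh38.p14: NDUF followed by A, B, C, S or V and a digit, SDHA to SDHD, UQCR genes, CYC1, COX4 to COX8 genes and ATP5 genes. Complex I held 37 of them, complex II 4, complex III 10, complex IV 17 and complex V 20. The symbols also took in the ATP synthase inhibitor ATP5IF1, the copies UQCRHL and ATP5MGL, and the readthrough genes NDUFC2-KCTD14 and ATP5MF-PTCD1. NDUFA4 and NDUFA4L2 had no entry under those symbols in the gene table, so neither was analysed. An annotated start was given in the RefSeq promoter table for 70 of the 88, among 15811 genes in that table.

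Complexes I to IV, in the inner mitochondrial membrane, pass electrons from NADH and succinate to oxygen. Complexes I, III and IV pump protons as they do so, and complex V, the ATP synthase, uses the proton gradient to make ATP. Most subunits are encoded in the nucleus, in genes that nearly every cell transcribes from promoters rich in CpG, and the factors NRF1, GABPA (an ETS protein) and YY1 are known to bind many of them. Complex IV has subunits with a broadly used gene and a second isoform gene used in particular tissues or states, such as COX4I2, which HIF induces in low oxygen in several cell types.

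Accessible chromatin had been mapped by ATAC-seq, in which a transposase cuts open DNA and adds sequencing adapters, in T47D, a human luminal breast cancer cell line with oestrogen receptor. Of 9 samples, 3 had a hairpin against ZHX2 (shZHX2) in hypoxia, 3 had a control hairpin (shCtrl) in hypoxia and 3 had the control hairpin in normoxia. All were infected with lentivirus and drug selected. Neither the oxygen level, the length of hypoxia nor the hairpin sequence is given in the sources used here. ZHX2 is a zinc finger and homeobox protein, and the series is about its part in chromatin structure when oxygen is low. A hairpin acts on RNA, so the lists of regions do not check the knockdown.

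Each group of 3 samples had 1 deposited list of called regions and no value per sample. No comparison below therefore has a replicate check or a p-value, and a called region is one that passed the peak caller's threshold in its list. The lists held 62779 regions for hypoxia with shZHX2, 77451 for hypoxia with shCtrl and 90962 for normoxia with shCtrl, over 40.6, 48.5 and 60.0 Mb, and the read depth behind them is unknown. List length moves with the groups, so counts of regions not shared are also given with the shCtrl lists cut by score to the length of the shZHX2 list. Every interval given is a Wilson 95% interval for counting error, and regions or genes are not replicates of a condition. Of 6 markers of luminal breast epithelium, all but ESR1 had a gene-end region in every list. Of 6 markers of other cells, ALB and PECAM1 had none in any list, CD3D had one in both shCtrl lists, and PTPRC, COL1A1 and RBFOX3 had one in all 3.

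A gene-end region is here one within 1 kb of the first or last base of a gene, and a start region one within 1 kb of the start in the promoter table. Regions were assigned to the gene whose end lay nearest, within 50 kb, and to each of several genes when they tied.

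Promoter windows of 300 bases (250 before and 50 after the RefSeq start, GRCh38.p14, 5′ to 3′ on the gene's strand) are shown for the 3 genes whose gene-end call differed between shZHX2 and shCtrl and for 5 genes called in all 3 lists. COX7B2 lies at chr4:46909196-46909495 on the minus strand, COX8C at chr14:93346932-93347231 on the plus strand and COX6A2 at chr16:31428311-31428610 on the minus strand. None of these 3 windows holds an ETS, NRF1, YY1 or cyclic AMP response element (CRE) match, so no letter is capitalised.
COX7B2: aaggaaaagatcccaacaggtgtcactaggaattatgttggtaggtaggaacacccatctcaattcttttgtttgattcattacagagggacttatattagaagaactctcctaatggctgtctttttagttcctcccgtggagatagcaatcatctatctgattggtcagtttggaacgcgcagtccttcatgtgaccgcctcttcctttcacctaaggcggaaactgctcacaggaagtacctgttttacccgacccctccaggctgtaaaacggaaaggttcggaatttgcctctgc
COX8C: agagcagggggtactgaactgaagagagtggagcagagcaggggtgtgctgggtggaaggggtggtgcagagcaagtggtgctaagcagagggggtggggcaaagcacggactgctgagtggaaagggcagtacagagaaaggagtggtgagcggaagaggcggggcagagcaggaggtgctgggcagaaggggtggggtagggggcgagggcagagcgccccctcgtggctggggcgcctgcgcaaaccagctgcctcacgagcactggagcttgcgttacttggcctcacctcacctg
COX6A2: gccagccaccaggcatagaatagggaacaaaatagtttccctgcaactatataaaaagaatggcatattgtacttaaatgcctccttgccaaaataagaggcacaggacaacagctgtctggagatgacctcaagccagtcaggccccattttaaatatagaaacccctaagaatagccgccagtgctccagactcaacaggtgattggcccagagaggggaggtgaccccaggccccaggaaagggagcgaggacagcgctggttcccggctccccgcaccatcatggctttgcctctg

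The next 5 are SDHB at chr1:17053983-17054282 (minus strand), UQCRC1 at chr3:48609597-48609896 (minus), SDHD at chr11:112086623-112086922 (plus), NDUFB4 at chr3:120596086-120596385 (plus) and ATP5PO at chr21:33915755-33916054 (minus). SDHB, UQCRC1 and ATP5PO had the highest fold enrichment of complexes II, III and V in hypoxia with shCtrl, and SDHD and NDUFB4 carry the longer NRF1 match described below. Capitals mark matches on either strand to 4 motifs: NRF1 as GCATGCGC, ETS as CCGGAAG, YY1 as AAGATGGCG and CRE as TGACGTCA.
SDHB: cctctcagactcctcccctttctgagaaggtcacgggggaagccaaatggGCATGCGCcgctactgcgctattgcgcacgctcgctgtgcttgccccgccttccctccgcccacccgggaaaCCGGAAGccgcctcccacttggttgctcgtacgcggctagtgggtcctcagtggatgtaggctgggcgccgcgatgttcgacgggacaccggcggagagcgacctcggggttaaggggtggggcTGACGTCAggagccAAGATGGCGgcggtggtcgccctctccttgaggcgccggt
UQCRC1: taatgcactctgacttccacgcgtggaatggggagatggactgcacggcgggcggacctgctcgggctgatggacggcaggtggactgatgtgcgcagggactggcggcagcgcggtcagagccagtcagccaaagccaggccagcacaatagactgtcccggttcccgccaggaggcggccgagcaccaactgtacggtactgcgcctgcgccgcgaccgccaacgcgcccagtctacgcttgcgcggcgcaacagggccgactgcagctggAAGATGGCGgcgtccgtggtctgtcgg
SDHD: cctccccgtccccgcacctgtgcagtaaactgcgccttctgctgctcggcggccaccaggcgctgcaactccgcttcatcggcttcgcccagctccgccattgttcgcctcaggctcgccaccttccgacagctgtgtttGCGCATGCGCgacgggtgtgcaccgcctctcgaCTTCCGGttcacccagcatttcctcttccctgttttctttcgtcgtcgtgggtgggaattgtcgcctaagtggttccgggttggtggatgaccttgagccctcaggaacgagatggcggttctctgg
NDUFB4: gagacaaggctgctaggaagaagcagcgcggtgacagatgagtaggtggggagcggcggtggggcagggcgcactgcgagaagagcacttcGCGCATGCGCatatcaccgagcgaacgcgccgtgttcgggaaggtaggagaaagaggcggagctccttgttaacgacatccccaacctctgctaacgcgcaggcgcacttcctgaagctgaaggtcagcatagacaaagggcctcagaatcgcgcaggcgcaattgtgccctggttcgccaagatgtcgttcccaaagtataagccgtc
ATP5PO: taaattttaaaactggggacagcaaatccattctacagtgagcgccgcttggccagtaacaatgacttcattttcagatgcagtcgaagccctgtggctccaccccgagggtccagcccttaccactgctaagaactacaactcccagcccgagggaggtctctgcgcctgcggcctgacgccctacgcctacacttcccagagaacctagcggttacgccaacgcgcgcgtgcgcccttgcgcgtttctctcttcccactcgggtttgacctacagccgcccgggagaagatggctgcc
SDHB, the iron-sulphur subunit of succinate dehydrogenase, held all 4 motifs, with NRF1 beginning at -200 from the start, ETS at -128, CRE at -4 and YY1 at +11. In UQCRC1, a core protein of complex III, the only match of the 4 was YY1 at +24, just inside the transcript. SDHD, a membrane anchor of complex II, held NRF1 at -110 on 1 strand and -108 on the other, and ETS at -77 on the minus strand. NDUFB4, an accessory subunit of complex I, held NRF1 at -159 and -157. The window of ATP5PO, the stalk subunit that confers oligomycin sensitivity, held none of the 4.

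Nearly all respiratory chain genes were accessible in every condition. A gene-end region was called for 76 of the 88 genes in hypoxia with shZHX2 (86.4%, interval 77.7 to 92.0), against 70.3% of all protein-coding genes in that list. In hypoxia with shCtrl 79 were called (89.8%, 81.7 to 94.5), against 72.5% of all genes, and in normoxia with shCtrl 80 (90.9%, 83.1 to 95.3), against 74.4%. The 76 called with shZHX2 were called in all 3 lists, as were 69.7% of all genes. At annotated starts the share was higher still. Start regions were called for 67 of 70 genes with shZHX2 (95.7%, 88.1 to 98.5), 70 of 70 in hypoxia with shCtrl (100%, 94.8 to 100) and 69 of 70 in normoxia (98.6%, 92.3 to 99.7). The background over all genes with a start was 72.2%, 73.5% and 75.2% in the same order. A region at a gene end or at a listed start was found for 80, 83 and 84 of the 88, against 73.4%, 75.6% and 77.3% of all genes.

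**Figure D1:**
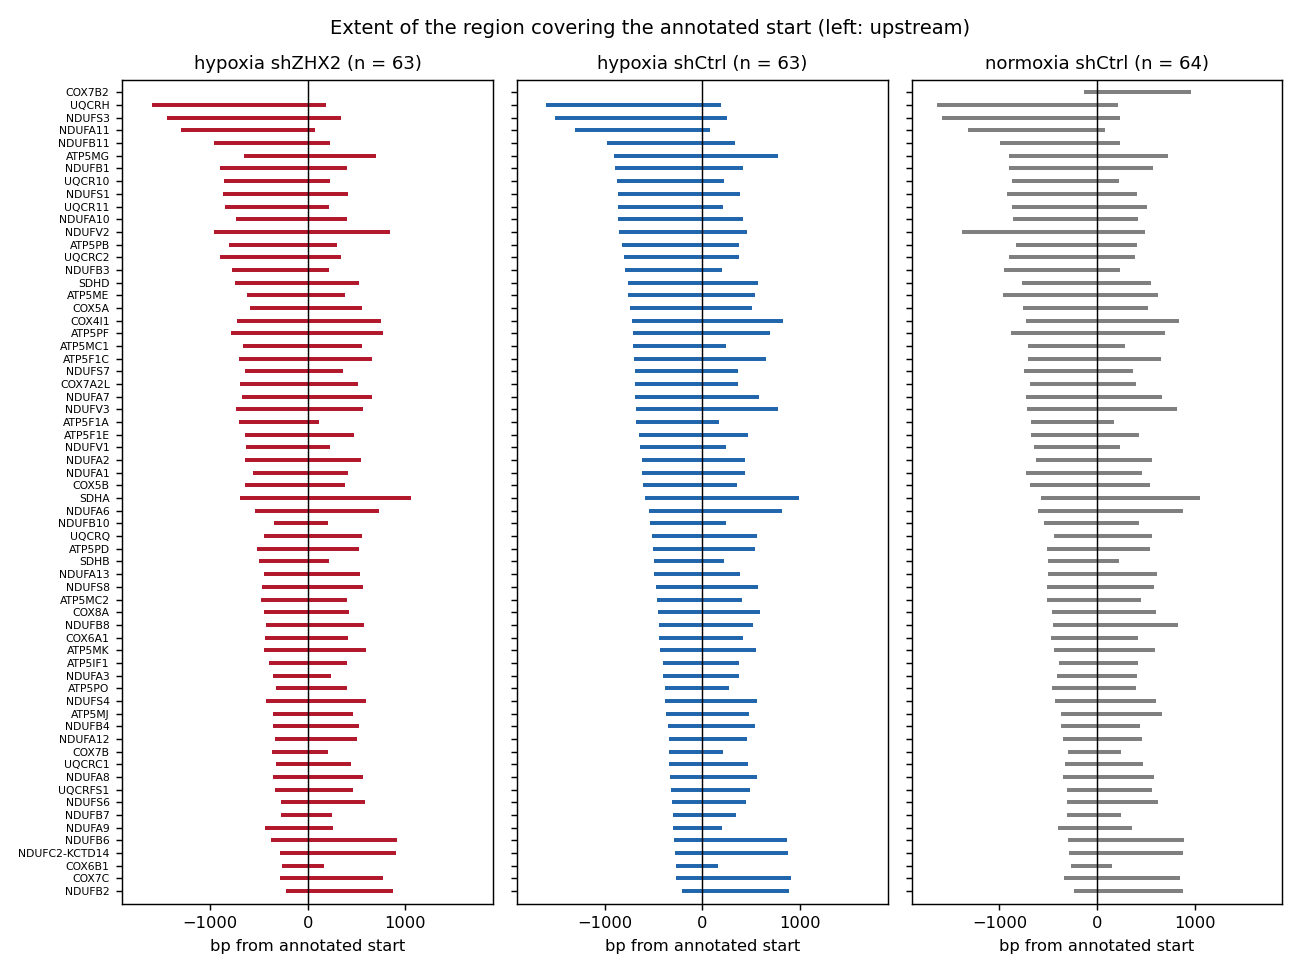
Extent of the region that covers the annotated start of each respiratory chain gene, in bp from the start (left, upstream), 1 row per gene and 1 panel per list, ordered by the upstream reach in hypoxia with shCtrl. Regions covered the start of 63 genes in hypoxia with shZHX2, 63 in hypoxia with shCtrl and 64 in normoxia with shCtrl. For most genes the edges were similar in each, and COX7B2 appears only in normoxia.

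The start regions had similar edges in the 3 lists for most genes, as the plot of their extents shows. Single genes differed more. NDUFV2 reached 965 bp upstream with shZHX2, 853 in hypoxia with shCtrl and 1383 in normoxia, and UQCR11 reached 214, 216 and 516 bp downstream. In the median gene the region reached 562 bp upstream and 462 bp downstream of the start with shZHX2, 588 and 440 bp in hypoxia with shCtrl, and 590 and 504 bp in normoxia. Over all genes it reached 482 and 593, 483 and 587, and 508 and 624 bp. In the median respiratory chain gene the region thus reached further upstream than downstream, where over all genes it did the reverse. In the promoter table, an upstream start of another gene on the opposite strand within 1 kb was found for 21 of the 70 (30.0%). The share was 11.3% of all genes and 15.2% of genes with a start region in all 3 lists. Those neighbours lay 63 bp (UQCRQ and GDF9) to 677 bp (NDUFA13 and TSSK6) away, with a median of 167 bp. Respiratory chain genes with such a neighbour had a median upstream reach of 696, 693 and 729 bp in the 3 lists. Their median downstream reach was 470.5, 436.5 and 565.5 bp. Those without one reached 448, 464 and 489 bp upstream and 462, 450 and 468 bp downstream, so they showed little difference between the sides. All genes were not split in this way. In 19 of the 20 such genes whose listed start was covered, the region reached the neighbour's start in each list, NDUFA13 being the exception. Which gene such a region serves cannot be told from these lists. Starts that overlap from the other side, or of genes absent from the promoter table, were not counted. With shZHX2 the start regions of ATP5PF, SDHD, NDUFB3 and NDUFV3, counted as without a neighbour, also touched an end of GABPA, TIMM8B, HYCC2 and WDR4. Where the table lists several starts for a gene, edges and neighbours were taken at the first.

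The 8 genes with no gene-end region in any list were of different kinds. ATP5MC2 (a subunit of the ATP synthase c-ring), NDUFA5 (an accessory subunit of complex I), COX7A2 (a complex IV subunit) and COX7A2L (which helps complexes III and IV assemble together) had a strong region at a listed start that lies inside the span RefSeq gives the gene. The table lists 2 or 3 starts for each of them, and in NDUFA5 and COX7A2 the first, at the edge of the span, had no region within 1 kb. The start region of ATP5MC2 had a fold enrichment of 9.85 with shZHX2, 9.50 in hypoxia with shCtrl and 8.80 in normoxia. For NDUFA5 the 3 values were 8.14, 8.41 and 7.85. COX7A2 had 7.34, 7.69 and 8.13, and COX7A2L 7.48, 8.74 and 8.06, in the same order. These folds are the authors' values over local background and are read within their own list.

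The other 4 were tissue isoforms or copies. COX7A1, the heart and muscle form of subunit 7A, and ATP5MGL, a gene resembling the ATP synthase subunit gene ATP5MG, had no assigned region in any list. UQCRHL, a copy of the complex III hinge gene UQCRH, had 4, 3 and 5 assigned regions in the 3 lists and none within 1 kb. COX4I2, the isoform of subunit 4 known for its use in lung and in low oxygen, had 2, 3 and 2. A region 3219 bp below the first base of COX4I2 in hypoxia with shCtrl was called in all 3 lists, with folds of 5.36 with shZHX2, 5.61 in hypoxia with shCtrl and 5.11 in normoxia. Hypoxia with shCtrl alone added a weak region at chr20:31647261-31647523, 2255 bp beyond the last base, with a fold of 2.45 and a −log10 q of 11.7. COX4I1, the widely used isoform, had a gene-end region in all 3 lists with folds of 5.42, 5.16 and 5.24.

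Gene-end calls differed between the lists for few genes. Of the 3 genes called in hypoxia with shCtrl and not with shZHX2 (3 of 88, against 2.72% of all genes; at starts 3 of 70, against 1.78%), all belong to complex IV and are isoforms known from muscle (COX6A2) or testis (COX7B2, COX8C). No gene was called with shZHX2 and not with shCtrl (0 of 88, against 0.471% of all genes). Between the shCtrl lists, 0 of 88 had a gene-end region in hypoxia and not in normoxia (0.476% of all genes) and 1 of 88 in normoxia and not in hypoxia (2.35%). At starts the counts were 1 of 70, COX8C (0.253% of all genes with a start), and 0 of 70 (1.95%). Each of these shares of all genes lies within the interval of the count beside it.

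COX7B2 had no region at its start with shZHX2, a weak one at chr4:46908413-46909213 in hypoxia with shCtrl (fold 3.06, −log10 q 13.9) and a stronger one at chr4:46908278-46909375 in normoxia (fold 5.94, −log10 q 56.8). The hypoxic region ended 32 bp short of the start, while the normoxic one covered it. COX6A2 had a region at chr16:31427512-31427771, over its 3′ end and 589 bp from its start, in hypoxia with shCtrl (fold 3.24, −log10 q 16.5) and in normoxia (fold 3.69, −log10 q 20.8). With shZHX2 its only region was a different one, at chr16:31430715-31430951, 2355 bp upstream of the start (fold 3.69, −log10 q 17.4). COX8C had no region with shZHX2 and a weak one 16 bp before its start, chr14:93346861-93347166, in hypoxia with shCtrl (fold 2.90, −log10 q 12.1). Normoxia had none there, and instead one at chr14:93349309-93349548, 953 bp past the other end (fold 2.65, −log10 q 8.84). None of the 3 genes differed between shZHX2 and shCtrl when every list was cut to regions with a −log10 q of 20 or more, or to equal length. COX7B2 was then called in normoxia and not in hypoxia with shCtrl under both cuts, and COX6A2 under the first.

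The testis isoform COX6B2, in contrast with COX8C and COX7B2, had a strong region in every list, with folds of 7.44, 6.53 and 6.37. The neighbouring gene GARIN5B also has an end there.

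Where called, gene-end regions of the respiratory chain were strong for their list. The median fold of the strongest gene-end region was 7.37 in hypoxia with shZHX2, against 6.17 over all called genes, and 58 of the 76 genes lay above that all-gene median. In hypoxia with shCtrl it was 6.83 against 5.88, with 57 of 79 above, and in normoxia 6.40 against 5.71, with 56 of 80 above. The median gene stood at percentile 72.7, 68.9 and 64.5 of the called genes of its own list. Lists of different length hold different shares of weak regions, so the order of these 3 percentiles shows no change between conditions. Widths were not unusual: the median gene stood at percentile 45.2, 46.0 and 46.5. Strong folds were not particular to the respiratory chain genes. In hypoxia with shCtrl the related gene lists described below had median fold percentiles from 61.7 (regulators) to 73.5 (mitochondrial ribosomal proteins), beside 68.9 here.

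**Figure D2:**
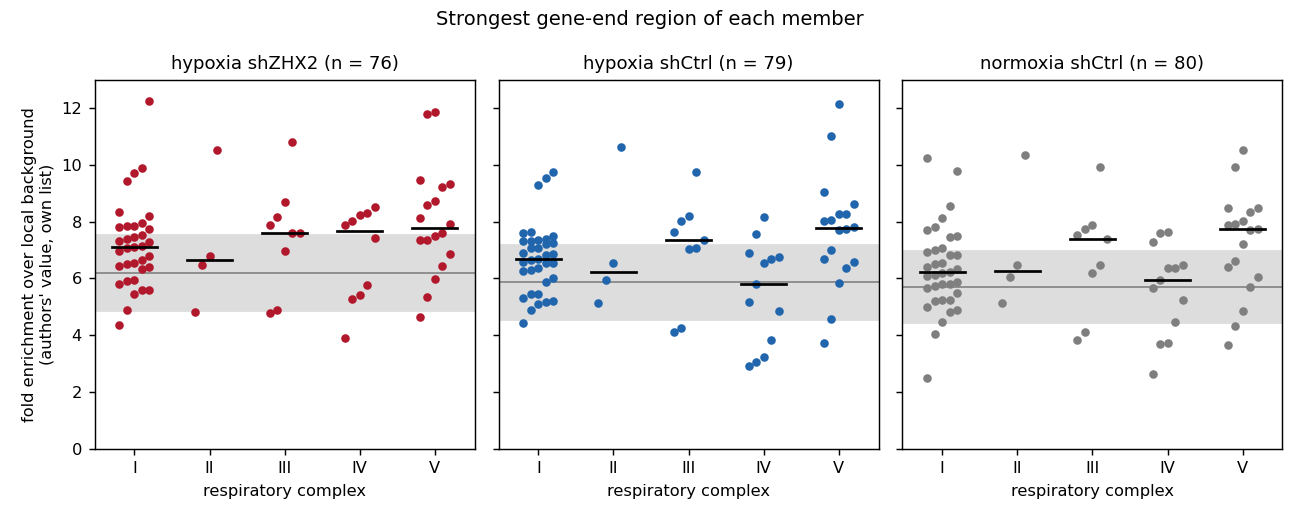
Authors' fold enrichment over local background of the strongest gene-end region of each gene (1 point per gene), by complex, in hypoxia with shZHX2 (n = 76), hypoxia with shCtrl (n = 79) and normoxia with shCtrl (n = 80); black bars are medians of the complex, the grey line and band the median and quartiles of all called genes of that list. Complexes III and V lay highest against the band in both shCtrl lists, and complex IV spread furthest below it in hypoxia with shCtrl.

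With shZHX2 the medians were 7.12 for complex I, 6.63 for II, 7.60 for III, 7.66 for IV and 7.77 for V. In hypoxia with shCtrl they were 6.69, 6.24, 7.37, 5.79 and 7.79, and in normoxia 6.21, 6.26, 7.39, 5.94 and 7.73. The median of complex IV rests on 10 genes with shZHX2 and 13 in each shCtrl list, since COX6A2, COX7B2 and COX8C were called in the shCtrl lists alone. At gene ends complex V led in every list, followed by complex IV with shZHX2 and by complex III in both shCtrl lists. The order was not the same at annotated starts. With shZHX2 complex III led there at 7.87, before V at 7.56 and IV at 7.48. The start median of complex IV was 6.61 in hypoxia with shCtrl and 6.37 in normoxia.

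The highest and lowest genes of each complex in hypoxia with shCtrl stood high or low in the other lists too, apart from COX8C, which had no region with shZHX2. ATP5PO, highest in complex V in hypoxia with shCtrl, had a fold of 11.8 with shZHX2, 12.1 in hypoxia with shCtrl and 9.91 in normoxia. SDHB, highest in complex II, had 10.5, 10.6 and 10.3. UQCRC1, highest in complex III, had 10.8, 9.77 and 9.93.
NDUFA3, an accessory subunit and the highest of complex I, had 12.2, 9.76 and 8.13. COX5B, which carries a zinc site and was highest in complex IV, had 8.53, 8.16 and 7.30. At the low end, NDUFS6 of complex I had 4.37, 4.43 and 4.06, and SDHA, the flavoprotein of complex II, 4.82, 5.14 and 5.14. CYC1, the haem protein cytochrome c1 of complex III, had 4.79, 4.12 and 3.85, and ATP5F1D, the delta subunit of the ATP synthase, 4.66, 3.74 and 3.67. The lowest of complex IV in hypoxia with shCtrl was COX8C. Across genes, the folds ranked alike between lists, with a Spearman correlation of 0.920 between shZHX2 and shCtrl in hypoxia (76 genes; 0.941 over all genes), and 0.943 between hypoxia and normoxia with shCtrl (79 genes; 0.947). These points share sequence, length and local background between lists, and genes are not independent replicates.

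In all, 153 regions were assigned to the respiratory chain genes in hypoxia with shZHX2, 176 in hypoxia with shCtrl and 185 in normoxia with shCtrl, for 83, 85 and 85 of the genes. Of these, 80 (52.3%), 85 (48.3%) and 90 (48.6%) lay at a gene end, against 21.5%, 18.4% and 16.4% of all regions in the list. Those shares of the list take in regions beyond 50 kb, where none could be assigned. Of all regions within 50 kb of a gene end, 13468 of 45613, 14204 of 54520 and 14862 of 62661 lay at one, in the same order. The respiratory chain regions elsewhere were nearer than usual, at a median of 7242, 8430 and 8407 bp, against 13311, 13527 and 13828 bp for all regions between 1 and 50 kb of a gene end. NDUFA10, an accessory subunit of complex I in a long gene, had the most regions with 7, 9 and 10, followed by COX4I1 with 5, 9 and 9. NDUFA8, another accessory subunit of complex I, had 4, 5 and 7. ATP5PO and ATP5MJ had 5 in every list.

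Merged across the lists, the genes held 194 regions, and 144 of them (74.2%, 67.6 to 79.9) were called in all 3, against 58.4% of all 97720 merged regions. Another 23 (11.9%) were called in both shCtrl lists and not with shZHX2, against 15.3% of all. Normoxia alone had 14 (7.22%, against 16.7%), hypoxia with shCtrl alone 7 (3.61%, against 4.34%) and shZHX2 alone 2 (1.03%, against 2.05%). A further 4 (2.06%, against 2.44%) were called with shZHX2 and in normoxia but not in hypoxia with shCtrl. No region was called in both hypoxia lists and not in normoxia (0%, against 0.750%). The shares of all merged regions take in those beyond 50 kb of a gene end, while the genes' own regions lie within 50 kb. Gene-end regions, which the lists share more often, make up more of these genes' regions than of all regions, so the comparisons below are given apart for gene ends and elsewhere. For 61 of the 88 genes every assigned region was called in all 3 lists, or there was none, and 27 genes held the 50 others. Those with none in any list were COX7A1, ATP5MGL and NDUFA5. The same count was not made over all genes, so it cannot be called high or low.

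**Figure D3:**
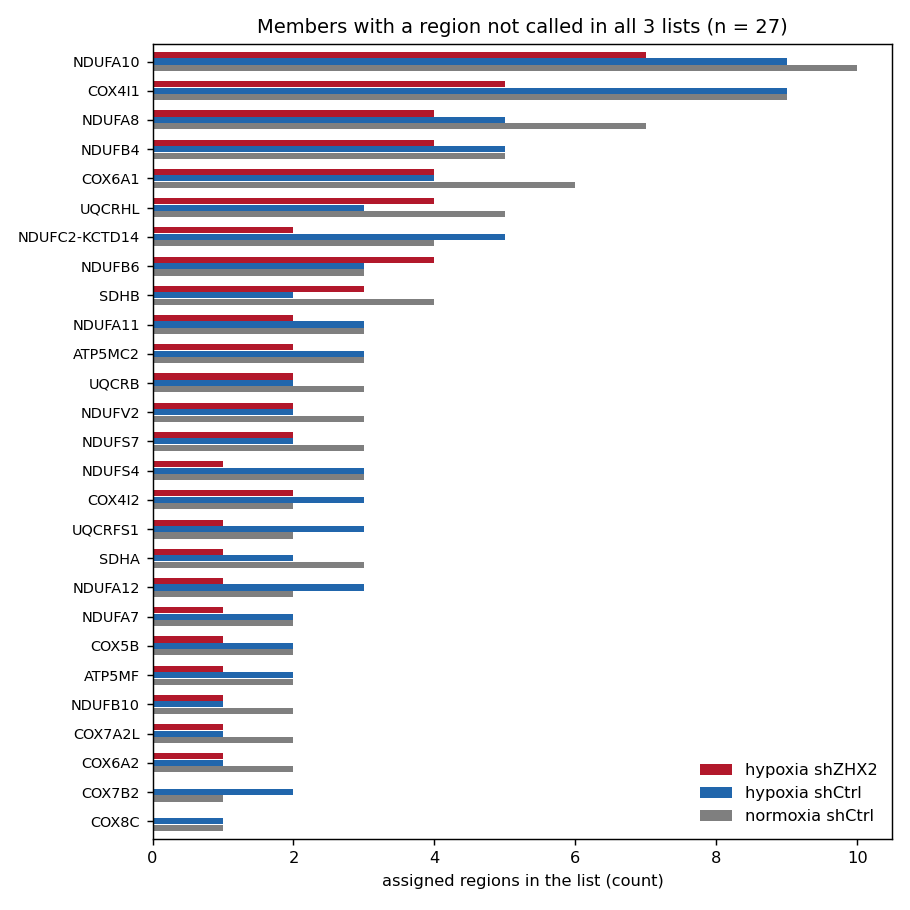
Number of assigned regions (count) in hypoxia with shZHX2, hypoxia with shCtrl and normoxia with shCtrl for the 27 respiratory chain genes with at least 1 region not called in all 3 lists. NDUFA10 and COX4I1 hold the most, and COX7B2 and COX8C have none with shZHX2.

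These 50 regions were weak. In the shZHX2 list the 6 among them had a median −log10 q of 14.8. It was 15.1 for the 30 in hypoxia with shCtrl and 13.7 for the 41 in normoxia. The medians of all respiratory chain regions were 177, 143 and 122, and those of all regions of each list 44.1, 42.1 and 39.3. Below 20 lay 6 of 6, 22 of 30 and 29 of 41. The 50 regions lie closer to the threshold, which is near 8 on this scale, than most regions of these genes. Unshared regions of all genes were not summarised in this way, so weakness is not shown to be particular to these.

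Regions called in hypoxia with shCtrl and not with shZHX2 numbered 30 of 176 (17.0%, 12.2 to 23.3), against 21.3% of all regions within 50 kb of a gene. At gene ends they were 4 of 85 (4.71%, 1.85 to 11.5), against 6.17% of all gene-end regions in the list. Elsewhere they were 26 of 91 (28.6%, 20.3 to 38.6), against 26.6% of all regions between 1 and 50 kb. Both shares are near the background, so they set the respiratory chain genes apart in neither place. The rates of all regions of the same score decile would give 26.8 of the 176. In the reverse direction, shZHX2 called 1 of its 80 gene-end regions that shCtrl did not (1.25%, 0.221 to 6.75), against 1.08% of all. Elsewhere it was 5 of 73 (6.85%, 2.96 to 15.1), against 7.25%. With lists of equal length the order turned, in place of 6 and 30. Then 12 of 153 regions were called with shZHX2 and not with shCtrl, and 9 of 149 with shCtrl and not with shZHX2. The share over all regions was not counted under this cut, so the turn cannot be read as particular to these genes.

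The 30 regions belong to 18 gene symbols. COX4I1 had 4 of its 9, at 25687 to 40871 bp beyond the gene and with folds of 2.44 to 2.67, and the score deciles alone would give 4.01. NDUFA10 had 3 of 9, inside the gene, with folds of 3.14 to 3.53 in hypoxia with shCtrl. NDUFC2-KCTD14 had 3 of 5, NDUFA8, NDUFS4, UQCRFS1 and NDUFA12 had 2 each, and COX7B2 had both of its regions.
The strongest single region in hypoxia with shCtrl was NDUFA8's at chr9:122144881-122145214, inside the gene, with a fold of 4.95 in hypoxia with shCtrl and 3.11 in normoxia. COX5B followed with 4.34 and 5.20 for a region 22079 bp from the gene, and UQCRFS1, the Rieske iron-sulphur subunit of complex III, with 4.27 and 4.87 at 47324 bp. NDUFA7 had 4.04 and 5.18 inside the gene, 2583 bp from the nearer end, NDUFS4 3.89 and 2.88 at 19516 bp, and ATP5MF 3.72 and 4.74 at 892 bp. NDUFA11 (2.72 and 2.78), SDHA (2.69 and 2.88), NDUFB4 (2.90 and 3.89) and ATP5MC2 (2.76 and 2.97) had 1 such region each. Their promoter regions were called in all 3 lists.

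The regions called with shZHX2 and not with shCtrl were 1 each for NDUFB6, UQCRHL, COX6A2, NDUFA10, NDUFA8 and SDHB. Those of NDUFB6 (fold 3.12, 6606 bp from the gene) and UQCRHL (fold 3.12, 3683 bp from it) were in the shZHX2 list alone. The other 4 were also called in normoxia: SDHB had 3.55 with shZHX2 and 3.01 in normoxia inside the gene, 7595 bp from its nearer end, NDUFA10 3.07 and 2.99, NDUFA8 2.98 and 2.32, and COX6A2 3.69 and 2.97. All 6 were at a fold under 4.

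**Figure D4:**
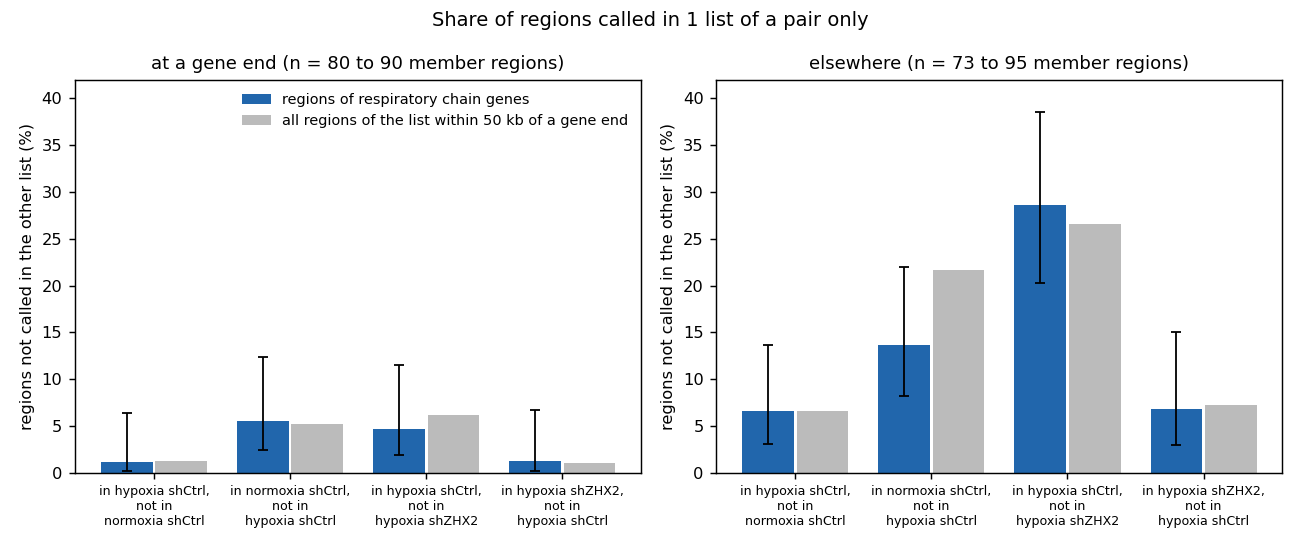
Share (%) of the regions of 1 list that another list did not call, at gene ends (left) and elsewhere within 50 kb (right), for respiratory chain genes (blue, with Wilson 95% intervals for counting error) and for all such regions of the list (grey). The blue and grey bars lie close together in each pair but the normoxia regions elsewhere, at 13.7% against 21.7%.

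Hypoxia with shCtrl called 1 of its 85 gene-end regions that normoxia did not (1.18%, 0.208 to 6.37), against 1.26% of all gene-end regions. Elsewhere it was 6 of 91 (6.59%, 3.06 to 13.6), against 6.57%. The 7 regions belonged to COX4I1, COX4I2, COX7B2, COX8C, NDUFA12, NDUFC2-KCTD14 and UQCRFS1, with folds of 2.44 to 3.34, and none was called with shZHX2 either. Only that of COX8C touched a gene end.

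Normoxia called 5 of its 90 gene-end regions that hypoxia with shCtrl did not (5.56%, 2.40 to 12.4), against 5.17% of all. Elsewhere it was 13 of 95 (13.7%, 8.17 to 22.02), against 21.7% of all regions between 1 and 50 kb, with the background just inside the interval. The score deciles of the whole list, gene ends included, would give a count of 21.7 regions among the 95, beside the 13 found. The genes' regions elsewhere also lay nearer to their gene than usual. Whether distance bears on this share was not tested. COX6A1, a complex IV subunit used in most tissues, had 2 such regions, and so did NDUFA8, SDHB and UQCRHL. COX4I1, COX6A2, COX7A2L, COX8C, NDUFA10, NDUFB10, NDUFS7, NDUFV2, SDHA and UQCRB had 1 each. With lists of equal length the surplus in normoxia was gone, in place of 7 and 18. Then 8 of 149 regions were called in hypoxia with shCtrl and not in normoxia, and 7 of 146 in normoxia and not in hypoxia. Here too the share over all regions was not counted under the cut. The highest fold among the 14 in normoxia alone was 3.50, for a region inside COX7A2L, and the lowest 1.58, inside NDUFB10.

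The letters of the 70 promoter windows were compared with those of all 15811 and with those of the 11337 genes with a start region in all 3 lists, on both strands. ETS (CCGGAAG) was found in 21 (30.0%, 20.5 to 41.5), against 16.5% of all and 21.6% of the accessible genes. GCATGCGC, within the NRF1 consensus, was found in 14 (20%, 12.3 to 30.8), against 4.89% and 6.30%. With the letters GC put before it, the longer form was in 4 (5.71%, 2.24 to 13.8), against 1.99% and 2.59%: ATP5F1C, NDUFA8, NDUFB4 and SDHD. AAGATGGCG, within the YY1 consensus, was in 9 (12.9%, 6.91 to 22.7), against 3.21% and 4.41%, and with a G added after it in 8 (11.4%, 5.91 to 20.96), against 2.23% and 3.08%. The 8 and 9 letter forms were chosen after the counts of the longer forms were seen, and each longer match contains the shorter. CRE (TGACGTCA) was in 5 (7.14%, 3.09 to 15.7), against 3.00% and 3.79%. The share of accessible genes lay inside the interval for ETS, CRE and the longer NRF1 form. It lay below the interval for the shorter NRF1 form and both YY1 forms.

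**Figure D5:**
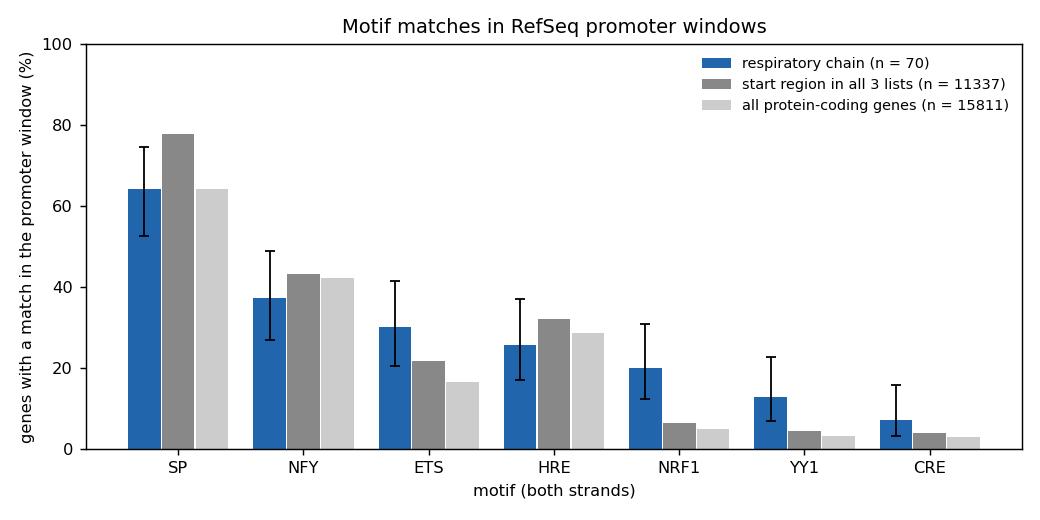
Share of genes (%) with a match on either strand in the 300-base RefSeq promoter window, for 7 motifs (NRF1 and YY1 in the shorter form), among respiratory chain genes (blue, Wilson 95% intervals), genes with a start region in all 3 lists (dark grey) and all genes with a window (light grey). The NRF1 and YY1 bars stand above both grey bars, at 20% and 12.9%, in forms chosen after the longer forms were counted. The longer NRF1 form was in 5.71%, against 2.59% of the dark grey genes. The ETS and CRE bars, at 30.0% and 7.14%, also stand above both, with the dark grey share inside their intervals. The HRE and NFY bars do not.

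For the remaining motifs, neither background share lay below the interval. The hypoxia response element core ACGTG was in 18 (25.7%, 16.9 to 37.0), against 28.5% and 32.1%. The SP motif GGGCGG was in 45 (64.3%, 52.6 to 74.5), against 64.3% and 77.6%, and the NFY motif CCAAT in 26 (37.1%, 26.8 to 48.9), against 42.1% and 43.1%. The SP share of accessible genes lay above the interval of the respiratory chain genes. The longer YY1 matches sat downstream of the start in 7 of 8 genes, at a median of 22 bp, while 4 of 26 ETS matches did so. The median position over all 26 was -43.5 bp. By complex, ETS was in 5 of 32 windows of complex I, 2 of 3 of II, 3 of 7 of III, 5 of 14 of IV and 6 of 14 of V, and the shorter NRF1 form in 6, 2, 0, 2 and 4. The windows were not rich in G and C for accessible genes, with a median of 61.0%, against 62.7% of all and 65.3% of accessible genes. A match is a description of letters and not a bound site.

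Genes that work with the respiratory chain, and ribosomal protein genes, had gene-end regions in every list more often than the 69.7% of all genes, by count. They were found for 49 of 50 assembly factors (all but SDHAF3), 20 of 20 regulators such as NRF1, TFAM and GABPA, 13 of 13 citric acid cycle genes, 75 of 77 mitochondrial ribosomal protein genes and 81 of 83 cytosolic ribosomal protein genes. Of their regions called in hypoxia with shCtrl, 12 of 115 (10.4%), 9 of 65 (13.8%), 7 of 39 (17.9%), 15 of 180 (8.33%) and 23 of 185 (12.4%) were not called with shZHX2, in the order of the lists just given. The respiratory chain genes' 30 of 176 (17.0%, 12.2 to 23.3) lay within that range. All 6 shares lay below the 21.3% of all regions within 50 kb of a gene, which is inside the respiratory chain genes' interval. They are not split here into gene ends and elsewhere. So split, the respiratory chain genes' shares were near the background. No gene of these 5 lists differed in its gene-end call between hypoxia with shZHX2 and with shCtrl, or between hypoxia and normoxia with shCtrl.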

How the data were processed

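Per the submitters' processing notes, FastQC, Bowtie2, SAMtools, MACS2 and hg38 were used. How 3 samples became 1 list, and all versions and settings, are not given in the sources used here. The deposited lists have 9 columns, and those used were the authors' score, their fold over local background and their −log10 q. The score equals the −log10 q multiplied by 10 and truncated, and the lowest −log10 q was 8.10. Regions off chromosomes 1 to 22 and X (197) were left out.

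Regions of different lists sharing 1 bp or more counted as called in both. Distances ran from region edges to RefSeq gene starts and ends (GRCh38.p14, which shares hg38 coordinates). Genes were named where no gene-end region was called, where a gene-end call differed, where a region was called in 1 or 2 lists, or where the fold was highest or lowest of its complex in hypoxia with shCtrl, and also COX4I1, COX4I2 and the 3 genes with most regions. Others named (COX6B2, ATP5MJ, genes with neighbours or motifs) were chosen after their values were seen. Members and lists were chosen with earlier results of these data known. The values of 1 gene are not reported here. Counts expected from score sum the rates of 10 score deciles of all regions. Interval code was tested on simulated data. Python 3.11.15, pandas 2.3.3, numpy 2.4.6 and scipy 1.17.1 were used.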

Additional observations from a re-analysis of the deposited data

How the results depend on the processing

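No paired analysis was possible because each group has 1 list and no replicate columns, and leaving out each replicate was not possible for the same reason. Of 101 alternative values under 13 settings, 77 stayed within 1.5 times the reported count and 24 did not. Regions called in hypoxia with shCtrl and not with shZHX2 (30) became 8 when only the shCtrl list was held to a −log10 q of 20 or more, 18 when every list was, 18 with assignment within 20 kb, 9 with lists of equal length and 16 with assignment to the nearest gene of any type. Regions called with shZHX2 and not with shCtrl (6) became 0 with a −log10 q of 20 or more in the shZHX2 list alone and 12 with lists of equal length. Regions called in hypoxia and not in normoxia (7) became 0 under the same limit in the hypoxia list alone, and 3 within 20 kb, with genes of any type, or without readthrough and tissue isoform genes. Regions called in normoxia and not in hypoxia (18) became 0 with the limit in the normoxia list alone, 10 with it in every list and 7 with equal length. Genes with a gene-end region in hypoxia with shCtrl and not with shZHX2 (3) became 0 with a −log10 q of 20 or more in every list, with equal length, or without the isoform genes (78 genes left). Those in hypoxia and not in normoxia (0) became 1, COX8C, with annotated starts only or a window of 500 bp. Those in normoxia and not in hypoxia (1) became 3 with a −log10 q of 20 or more in every list (COX6A2 and COX7B2 among them), 2 with equal length (COX7B2 among them), and 0 with starts only or 500 bp. Genes with the NRF1 motif went up to 14 with the shorter letters, against 4. An assignment limit of 100 kb, a 2 kb window, a 50% overlap and distances from region centres moved nothing beyond 1.5 times. Shares over all regions or genes were not recounted under these settings, apart from annotated starts and motifs. The comparisons rest on weak regions near the threshold, with unknown read depth and no replicate lists.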
